A study of Mus musculus with 6 samples.

Results

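Insulin and the insulin-like growth factors act through a small set of genes, and 10 of them are described here in the rostral telencephalic primordium of mouse embryos with and without Dicer. They are the adaptors Irs1, Irs2 and Irs4, the receptors Insr, Igf1r and Igf2r, the ligands Igf1 and Igf2, and the binding proteins Igfbp2 and Igfbp5. Members were taken by gene name, and each name matched 1 row of the 55471 genes in the count files. RNA-seq was available from 3 control and 3 Rx-Dicer samples from E11.5 embryos, numbered 1 to 3 within each genotype. Control embryos carried floxed Dicer alleles (Dicer1tm1Bdh) without Cre, although their genotype label reads WT. Rx-Dicer embryos carried the same alleles and a Cre driven by regulatory sequences of Rax (Rx), which recombines in the early forebrain, at this age more in rostral and ventral telencephalon than in neocortex. Cre and floxed lines were kept on different backgrounds (CD1 and C57BL/6). Whether a library held 1 embryo or several is not stated in the labels, so p-values measure the spread between these samples.

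When a ligand binds INSR or IGF1R, the receptor kinase phosphorylates IRS adaptor proteins, which recruit PI3K and so activate AKT, a driver of growth and survival. IGF2R clears IGF2 from the cell surface and carries lysosomal enzymes, and does not signal in this way. IGF-binding proteins hold the ligands outside the cell, and IGF signalling is known to promote division of neural progenitors. let-7 miRNAs, which need Dicer to mature, bind transcripts through a seed at bases 2 to 8, and Irs2, Igf1r and Insr are known let-7 targets.

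Sequence is described first. Because Irs2, Igf1r and Insr were known let-7 targets beforehand, the share of members with a let-7 word is not independent of how the members were chosen. The RefSeq table (GRCm38.p6) held 9 mature names of the let-7 family, let-7a to let-7g, let-7i and miR-98, with the same seed. Of these, 3 are shown with the seed in capitals.
let-7a-5p: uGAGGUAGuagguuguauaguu
let-7b-5p: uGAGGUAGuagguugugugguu
let-7c-5p: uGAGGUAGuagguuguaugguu
The word CTACCTCA (8 bases, transcript strand) is the complement of this seed followed by an A. It was present once in the longest annotated 3′ UTR of 5 of the 10 members, namely Irs2, Insr, Igf1r, Igf2r and Igf1. Among 14054 tested protein-coding genes with a 3′ UTR, 3.79% held it, and among the 6668 with a 3′ UTR of at least 1304 bases, the length of that of Igf2r, 6.15% did. Members had long 3′ UTRs, with a median of 3748 bases against 1217. Of the 5 matches, 4 are shown with 14 bases before and 6 after, the word in capitals, on the transcript strand (GRCm38).
Irs2, chr8:10986528-10986535, minus strand: aaactaccacagtcCTACCTCAgttcag
Insr, chr8:3153198-3153205, minus strand: cttctcagtacagtCTACCTCAgtgtct
Igf1r, chr7:68229125-68229132, plus strand: tttcaaacatttatCTACCTCActcttg
Igf2r, chr17:12683036-12683043, minus strand: acctgctccgtgccCTACCTCAtctctg
All 3 receptors and 1 of the 3 adaptors were thus among the genes with the word, whereas neither binding protein was. Counting 7-base words too (CTACCTC or TACCTCA), 8 of 10 members had a match in the 3′ UTR, against 17.4% of all tested genes, and Irs4 and Igfbp2 had none. The 8-base word of miR-9 (ACCAAAGA), another abundant miRNA of this tissue, was in no member's 3′ UTR and in 4.74% of all tested genes. A match is a description of letters and not a measured site. The map of let-7 words along the 3′ UTRs shows that the words of Irs2 and Igf2r lay 475 and 667 bases from the start of the UTR.

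**Figure D1:**
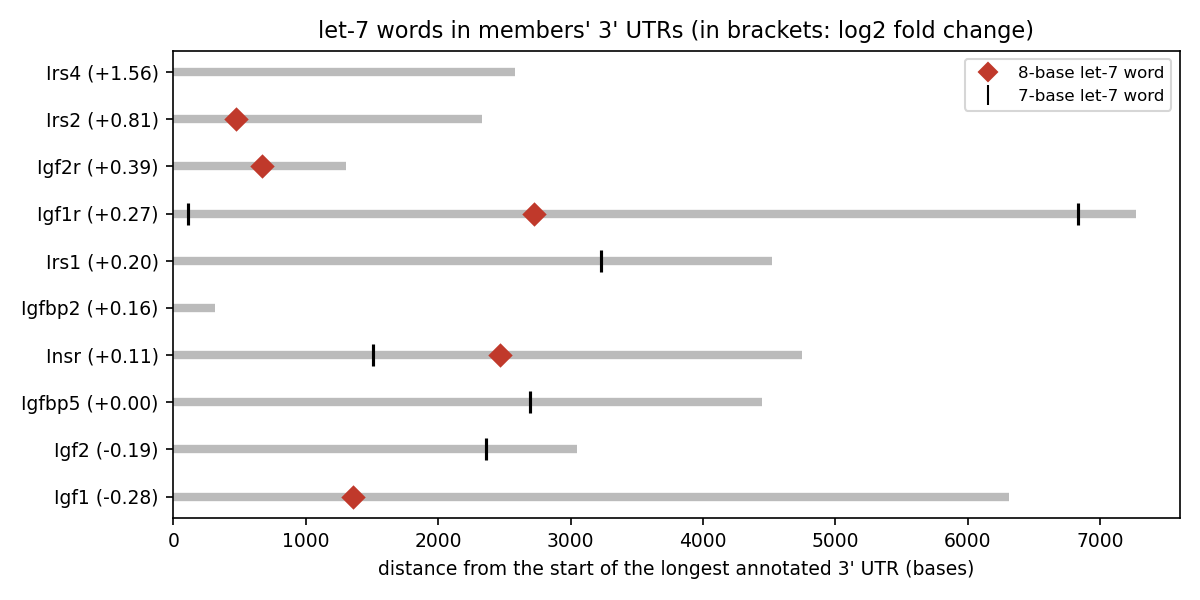
Position of let-7 words in the longest annotated 3′ UTR of each member; the x axis is the distance in bases from the UTR's start, the grey bar the UTR, red diamonds 8-base words and black ticks 7-base words, and members are ordered by log2 fold change (in brackets). The 5 members with an 8-base word spread from -0.28 (Igf1) to 0.81 (Irs2), and Irs4, at 1.56, had no word.

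Libraries held 34471501 to 48373468 counts on genes, and the lowest count of any member in any library was 98 (Irs4). The largest difference between the repeat runs of a library was below that between controls for each member except Igf1r (0.099 against 0.029, log2 scale). The deleted gene was read first. Dicer1 had 6355, 7070 and 6270 normalised counts in controls 1 to 3 and 4777, 7002 and 4644 in Rx-Dicer 1 to 3, so that Rx-Dicer 2 lay at the level of the controls (log2 fold change -0.26 ± 0.17 SE, DESeq2 adjusted p = 0.567). Reads outside the deleted part still count. Markers of telencephalic neuroepithelium (10 genes, Pax6 and Emx2 among them) summed to 93079 to 124145 normalised counts in all libraries. In Rx-Dicer 1 was called higher (Six3, log2 1.27, DESeq2 adjusted p = 6.27e-06) and 1 lower (Pax6, log2 -0.43, DESeq2 adjusted p = 0.0127). The tissue also held blood (9 erythroid genes, 351745 to 995852), endothelium (9 genes, 4698 to 10576), young neurons (8 genes, 44946 to 72809) and traces of surface epithelium (8 genes, 605 to 3008). In each of these the sums of the genotypes overlapped and no gene was called. The 7 tested surface epithelium genes had a median log2 fold change of -1.30. In 1 of the 8 young neuron genes, Elavl3, all Rx-Dicer values lay below the controls (DESeq2 adjusted p = 0.152), and in 0 above.

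The central comparison asked which members differed between genotypes. Irs2 and Igf2r rose in Rx-Dicer samples and no member fell (DESeq2 Wald test, adjusted p under 0.05 over all genes and a log2 change of over 0.322 in size). That is 2 of 10 members called, where 2.93% of 17128 tested genes were called: both members were higher, and 1.75% of tested genes were called higher and 1.18% lower. The study had already reported Irs2 as raised in these data, and the members were chosen with earlier results known. These shares are therefore no test of the members as a set. In 5 members (Irs1, Irs2, Irs4, Igf1r and Igf2r) all 3 Rx-Dicer values lay above all 3 controls, against 8.55% of tested genes, and in none did they lie below, against 10.7% (19.3% in either direction). All members passed the filter on low counts. The median log2 fold change was 0.18 over the members and -0.00087 over all tested genes. An unadjusted p under 0.05 was reached by 4 of 10 members with DESeq2 (13.1% of tested genes). The stricter quasi-likelihood test of edgeR called 0 members, although 5 had an unadjusted p under 0.05 (12.9% of the 17954 genes in that fit), and it called 8 genes in all (0.0446%). In bulk tissue, fewer cells of a type and less RNA per cell cannot be told apart.

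**Figure D2:**
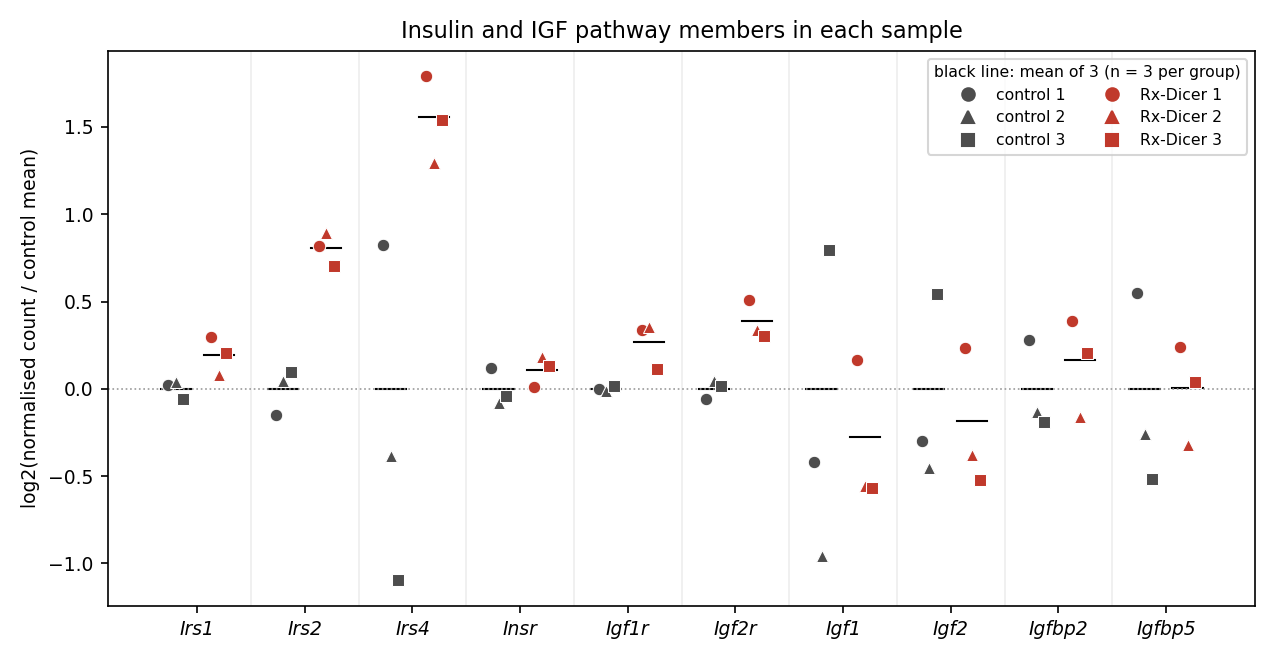
Normalised counts of the 10 members in every sample, as log2 of the ratio to the control mean (y axis); grey marks are controls, red marks Rx-Dicer samples, shapes the sample numbers and black lines the means of 3. Red marks stand above all grey ones for Irs1, Irs2, Irs4, Igf1r and Igf2r, and mix with them for the other genes.

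**Figure D3:**
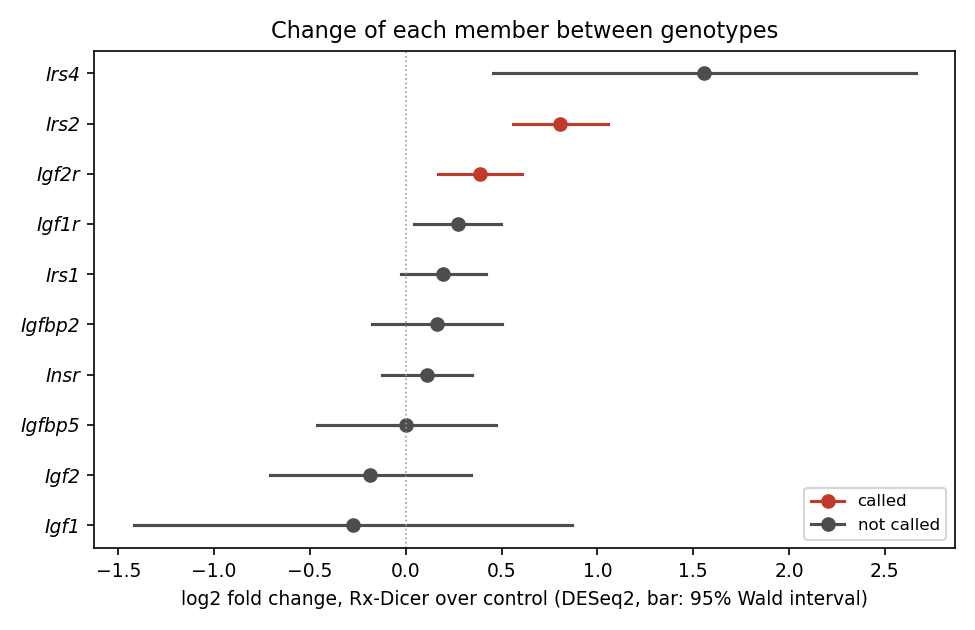
log2 fold change of each member, Rx-Dicer over control, from the DESeq2 fit on all genes (x axis), with 95% Wald intervals as bars; red marks the called genes. Irs2 (0.81) and Igf2r (0.39) were called, while Irs4 had a larger change (1.56) with the widest interval but that of Igf1.

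The largest changes were among the adaptors. Irs2 (ENSMUSG00000038894, chr8:10984681-11008458, minus strand) had 1463, 1673 and 1733 normalised counts in controls 1 to 3 and 2865, 3009 and 2643 in Rx-Dicer 1 to 3. The groups were well apart, and the highest value came from Rx-Dicer 2, the library with Dicer1 at the control level. The fold was 1.75 (log2 0.81 ± 0.13 SE), with a DESeq2 adjusted p of 1.36e-07 and an edgeR adjusted p of 0.0520. Leaving out any 1 sample kept Irs2 called, at log2 fold changes of 0.74 to 0.86.

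Irs1, the other widely used adaptor, changed little in size. Controls of Irs1 (ENSMUSG00000055980, chr1:82233101-82291416, minus strand) had 5079, 5141 and 4799 normalised counts, and Rx-Dicer samples had 6141, 5285 and 5780. All Rx-Dicer values were higher, but Rx-Dicer 2 was only just above the controls. The log2 fold change was 0.20 ± 0.11 (SE), with a 95% interval of -0.03 to 0.42 and a DESeq2 adjusted p of 0.484.

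Irs4 (ENSMUSG00000054667, chrX:141710998-141725263, minus strand) is an adaptor known from the hypothalamus and pituitary and little used elsewhere. It had 348, 151 and 92.1 normalised counts in controls, against 682, 483 and 573 in Rx-Dicer samples. The groups did not overlap, yet the controls spread 3.78-fold among themselves. The fold was 2.95 (log2 1.56 ± 0.56 SE, 95% interval 0.46 to 2.66), the largest of the members, and it was not called (DESeq2 adjusted p = 0.116, edgeR adjusted p = 0.215). The call turned on single libraries: without control 1 the log2 fold change was 2.26 (DESeq2 adjusted p = 1.86e-13) and without control 3 it was 1.22 (0.0193), and both passed. Beside this, a list of 10 hypothalamic and optic genes summed to 441 to 698 normalised counts in controls and 1477 to 2775 in Rx-Dicer samples. Of its 7 tested genes 2 were called higher (Otp and Vax1), Nkx2-1 had a DESeq2 adjusted p of 0.0549, and Tyr, Vax2 and Nkx2-2 had means under 10. Pmel went the other way, with all Rx-Dicer values below the controls (log2 -1.20, DESeq2 adjusted p = 0.316, not called). The study uses Nkx2-1 to mark the medial ganglionic eminence of the ventral telencephalon, so this gene is not particular to the hypothalamus. Nkx2-1 was the largest part of the sum in every Rx-Dicer sample, and within genotypes the sum did not follow Irs4: control 1 had the most Irs4 and the lowest sum (441) of the controls, and Rx-Dicer 2 the least Irs4 and the highest sum (2775) of the Rx-Dicer samples. Single genes did so in part. Of the 7 tested genes, 2 (Rax and Mitf) had the order of Irs4 within both genotypes, and 4 had it within Rx-Dicer samples (these and Otp and Pmel). Their part in the Irs4 result was not tested.

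Levels of different genes were compared per kilobase of merged exons. On this scale the adaptor level was mostly Irs1 in controls, at 548 ± 19.9 normalised counts per kb (SD, n = 3), with Irs2 at 257 ± 22.4 and Irs4 at 31.3 ± 21.3. In Rx-Dicer samples the levels were 627 ± 47.0, 449 ± 29.2 and 92.0 ± 15.8. Summed over the 3 adaptors, the level was 842, 851 and 814 per kb in controls compared with 1233, 1130 and 1141 in Rx-Dicer samples, 1.40 times the control mean. Of the difference in means of 333 per kb, Irs2 made up 192, Irs1 79.7 and Irs4 60.8. Irs1 thus went from 65.5 ± 0.87% of the adaptor level to 53.7 ± 2.25%, Irs2 from 30.8 ± 3.12% to 38.5 ± 3.12%, and Irs4 from 3.73 ± 2.51% to 7.85 ± 1.01% (SD, n = 3 each). For each of the 3 shares the genotypes did not overlap, with p = 0.1 by an exact permutation test (two-sided), the smallest that 3 against 3 samples allow. For Irs4 the gap was narrow, with 6.57% in control 1 and 6.79% in Rx-Dicer 2. The 3 shares are parts of the same whole, so they are not separate results. A test at 0.05 could not be passed in this design.

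**Figure D4:**
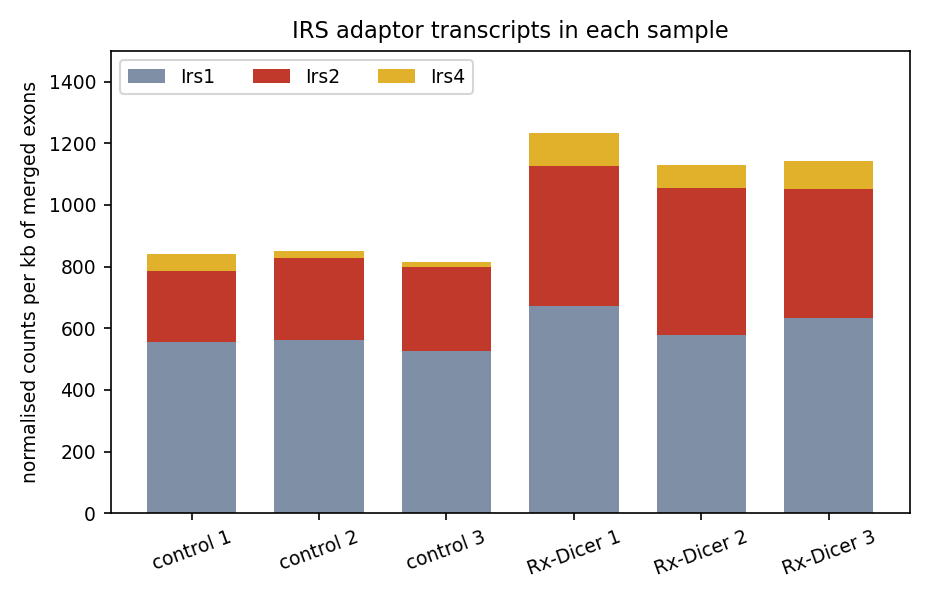
Level of Irs1, Irs2 and Irs4 in each sample, stacked, in normalised counts per kb of merged exons (y axis, from 0). Summed bars reach 814 to 851 in the controls and 1130 to 1233 in the Rx-Dicer samples, and the red Irs2 part grows most.

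Among the receptors, Igf2r was called and the signalling receptors were not. Igf2r (ENSMUSG00000023830, chr17:12682406-12769664, minus strand), an imprinted gene whose product takes up IGF2, had 6482, 6950 and 6813 normalised counts in controls. Its Rx-Dicer values were 9590, 8523 and 8338, all above the controls. The fold was 1.31 (log2 0.39 ± 0.11 SE) with a DESeq2 adjusted p of 0.0293 and an edgeR adjusted p of 0.149. The Igf2r call was lost without control 1, 2 or 3 (DESeq2 adjusted p = 0.0596, 0.0618 and 0.0743), and without Rx-Dicer 1 the log2 fold change, 0.319, was just under the minimum size.

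Igf1r (ENSMUSG00000005533, chr7:67952827-68233668, plus strand), the main signalling receptor for both IGFs, had 5669, 5627 and 5741 normalised counts in controls. This was the tightest control group of all members, with a coefficient of variation of 1.01%. Rx-Dicer samples had 7164, 7245 and 6146, again all higher, with Rx-Dicer 3 nearest the controls. The log2 fold change of 0.27 ± 0.11 (SE, 95% interval 0.05 to 0.50) had a DESeq2 adjusted p of 0.228. Without Rx-Dicer 3 it was 0.34 and passed (DESeq2 adjusted p = 0.0176).

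Insr (ENSMUSG00000005534, chr8:3122061-3279617, minus strand), the insulin receptor, overlapped between genotypes. Controls had 3098, 2692 and 2766 normalised counts and Rx-Dicer samples 2877, 3239 and 3116. The log2 fold change was 0.11 ± 0.12 (SE), and its 95% interval of -0.13 to 0.34 leaves out a change of the size of that of Irs2. Per kb of merged exons, Insr made up 38.0 ± 1.77% of the Insr and Igf1r level in controls and 35.5 ± 2.67% in Rx-Dicer samples (SD, n = 3 each), and these shares overlapped (exact permutation p = 0.3, two-sided). Igf1r therefore exceeded Insr in every sample of both genotypes.

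Ligand counts were low and varied between samples of a genotype more than between genotypes. Reads on several genes were not counted for any gene, and whether this lowered the ligand counts was not tested. Igf1 (ENSMUSG00000020053, chr10:87858265-87937042, plus strand) had 710, 488 and 1648 normalised counts in controls, against 1064, 645 and 639 in Rx-Dicer samples. Igf2 (ENSMUSG00000048583, chr7:142650766-142666816, minus strand), the fetal ligand, had 609, 548 and 1093 in controls compared with 881, 577 and 523 in Rx-Dicer samples. Control 3 was the highest and Rx-Dicer 1 the second highest for both genes. The log2 fold changes were -0.28 ± 0.58 for Igf1 and -0.19 ± 0.27 for Igf2 (SE), with DESeq2 adjusted p of 0.941 and 0.894. Both turned positive without control 3, to 0.39 and 0.19, and neither was called. The share of Igf2 in the Igf1 and Igf2 level per kb was 59.8 ± 6.29% in controls and 59.4 ± 1.16% in Rx-Dicer samples (exact permutation p = 0.9, two-sided). The insulin genes Ins1 and Ins2 had no count in any library, which allows up to 0.0620 to 0.0870 CPM (3 counts of a library, counting error only).

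Markers of meninges and head mesenchyme, tissues known to make IGFs in the embryo, were highest in the same samples as the ligands when summed, and less uniformly gene by gene. The 13 markers, all of them tested, summed to 56495, 39009 and 85240 normalised counts in controls and to 76866, 62528 and 60727 in Rx-Dicer samples. The sums of control 3 and Rx-Dicer 1 were again the highest, in the same order, and control 2 was the lowest for the sum and for Igf1. Collagens, Col3a1 above all, made up most of the sum. Control 3 was the highest sample for 8 of the 13 genes, but Rx-Dicer 1 came second in only 3 of them (Col1a2, Col3a1 and Twist1), and for Dcn control 3 was the lowest sample. Of the 13 genes, 1 was called (Foxd1, higher, log2 0.70, DESeq2 adjusted p = 0.0142), and none was at 0. What part of the ligand reads came from such cells was not tested.

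**Figure D5:**
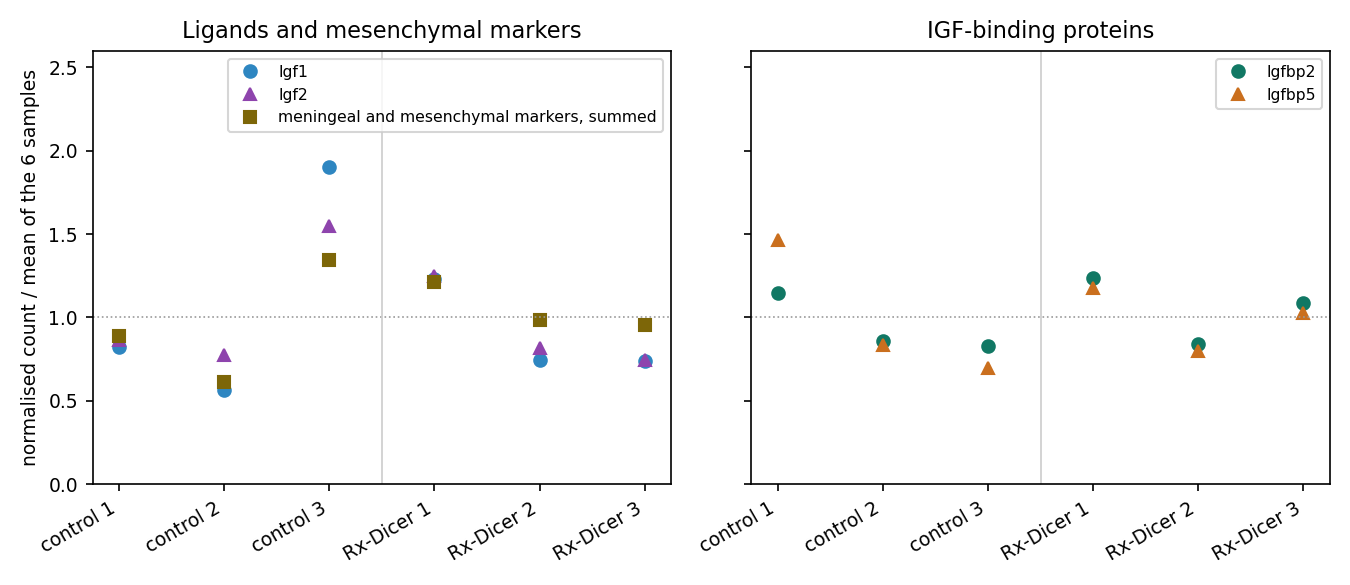
Left, Igf1, Igf2 and the summed markers of meninges and head mesenchyme in each sample; right, Igfbp2 and Igfbp5; all as normalised count over the mean of the 6 samples (y axis). On the left the points of control 3 and Rx-Dicer 1 stand highest, and on the right those of control 1, Rx-Dicer 1 and Rx-Dicer 3.

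Igfbp2 was the most abundant member in both genotypes. Igfbp2 (ENSMUSG00000039323, chr1:72824503-72852474, plus strand) had 11645 ± 2159 normalised counts per kb in controls (SD, n = 3), a level higher than that of 99.2% of 17120 tested genes with a length. Igfbp5 (ENSMUSG00000026185), which lies close by at chr1:72857932-72874884 on the minus strand with its 3′ end towards that of Igfbp2, had 891 ± 363. Controls 1 to 3 had 26090, 19613 and 18821 normalised counts of Igfbp2, and Rx-Dicer 1 to 3 had 28193, 19211 and 24823. For Igfbp5, controls had 7834, 4479 and 3738, against 6314, 4283 and 5493 in Rx-Dicer samples. Genotypes overlapped for both, and the samples fell in nearly the same order, with control 1, Rx-Dicer 1 and Rx-Dicer 3 high and control 3 and Rx-Dicer 2 lowest. The log2 fold changes were 0.16 ± 0.17 for Igfbp2 and 0.0038 ± 0.24 for Igfbp5 (SE), with DESeq2 adjusted p of 0.824 and 0.998. Igfbp5 had no stable sign: its log2 fold change was -0.11 without control 2, -0.20 without control 3, -0.13 without Rx-Dicer 1 and -0.013 without Rx-Dicer 3, and it was not called. Control 3 and Rx-Dicer 2 were also lowest for the pallial genes Emx1 (2156 and 921 normalised counts, against 3615 to 5286 in the others) and Emx2 (4997 and 5466, against 7608 to 9840), a pair picked after its values were seen. The part of tissue makeup in the binding protein levels was not tested.

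Ordered by control level per kb, the members ran from Igfbp2 through Igfbp5, Igf2r (725 ± 25.8), Irs1, Igf1r (338 ± 3.42), Irs2, Insr (207 ± 15.7), Igf2 (131 ± 52.2) and Igf1 (95.8 ± 62.2) to Irs4. Neighbours in this order whose control ranges overlapped were Igfbp5 and Igf2r, Igf2 and Igf1, and Igf1 and Irs4. With the longest transcript as length, Insr (305 per kb) came before Irs2 (257). In Rx-Dicer samples the mean of Igf2r (947 per kb) lay above that of Igfbp5 (893), and the mean of Irs2 (449) above that of Igf1r (408), each the reverse of the order in controls. With the longest transcript as length, Igf1r (601) stayed above Irs2. The repeat runs of a library gave the technical error of these levels: they differed by at most 0.03 (Igfbp2) to 0.39 (Irs4) on the log2 scale, and for each member except Igf1r by less than the control samples differed among themselves.

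Other genes of the pathway were taken from lists, and 4 of them were called, all higher. The counts below stand beside 2.93% of all tested genes called, 1.75% higher and 1.18% lower. Of 14 further ligands, binding proteins and their proteases, 9 were tested, with a median log2 fold change of 0.21, and 1 was called. This was Htra1, a secreted protease known to cleave IGF-binding proteins, with 62.3, 18.3 and 51.7 normalised counts in controls 1 to 3 and 250, 78.4 and 178 in Rx-Dicer 1 to 3 (log2 1.94 ± 0.46 SE, DESeq2 adjusted p = 0.00303). Igfbp4 (8435, 7228 and 12587 in controls, 9069, 8696 and 8077 in Rx-Dicer) and Igfbpl1, the most abundant of that list, were not called, with log2 fold changes of -0.13 and 0.13. Of 28 other receptors, adaptors and receptor brakes, 27 were tested, with a median of 0.05, and 1 was called. Socs3, an inhibitor of cytokine and insulin receptor signalling, had 566, 666 and 574 normalised counts in controls, against 1051, 731 and 1074 in Rx-Dicer samples (log2 0.66 ± 0.18 SE, DESeq2 adjusted p = 0.0169). Grb10, an imprinted adaptor that restrains both receptors and the most abundant gene of this list, was not called (log2 0.14 ± 0.13 SE). In all 3 Rx-Dicer libraries both called genes were higher, and Rx-Dicer 2 was the lowest of these for both.

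Among 15 PI3K, AKT and FOXO genes, the median was 0.12, and 2 were called, both higher, of which Pik3r3 is described. Pik3r3, a regulatory subunit of PI3K, had 3121, 2885 and 3439 normalised counts in controls compared with 4212, 4256 and 4285 in Rx-Dicer samples (log2 0.43 ± 0.12 SE, DESeq2 adjusted p = 0.0142). Its Rx-Dicer values lay close together and well above the controls. In 6 of the 15 genes all Rx-Dicer values lay above the controls (8.55% of tested genes), Foxo1 among them with a log2 fold change of 0.25 that was not called. The 3 IGF2 mRNA-binding proteins, known let-7 targets, were not called, with changes of 0.25 (Igf2bp1), 0.16 (Igf2bp2) and 0.22 (Igf2bp3). edgeR called none of the lists' genes, with adjusted p of 0.134 to 0.212 for the 4 DESeq2 calls.

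These calls depended on single libraries. Htra1 was lost without control 2, Rx-Dicer 1 or Rx-Dicer 3, and Pik3r3 without control 2. Socs3 was lost without control 1, control 3, Rx-Dicer 1 or Rx-Dicer 3. Without Rx-Dicer 2 all 3 were kept and Foxo3 was added. A list of 9 microglial and macrophage markers, all tested and none at 0, summed to 1588, 1353 and 1626 normalised counts in controls 1 to 3. The sums in Rx-Dicer 1 to 3 were 5169, 1504 and 3235. Within Rx-Dicer samples the sum had the order of Htra1. Socs3 did not follow it: Socs3 was highest in Rx-Dicer 3 and, among controls, in control 2, where the sum was lowest. In Rx-Dicer 2 the sum lay within the control range, while Htra1 and Socs3 lay above all controls. Csf1r and Cx3cr1 of that list were called higher, and its part in the 2 pathway genes was not tested.

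Genes with a pattern most like that of the called members were found by the root mean square difference of log2 values over the 6 samples, each gene centred on its control mean, among 11961 genes. Nearest to Irs2 were Tnrc6a (0.0872), Sybu (0.104), Rev3l (0.112), Cd2ap (0.116) and Tnrc6b (0.118). Tnrc6a, which encodes a scaffold of the silencing complex, had 5869, 6239 and 6195 normalised counts in controls, against 10507, 10061 and 9783 in Rx-Dicer samples. All 5 were called higher, which the measure of likeness makes probable for any gene near Irs2. Nearest to Igf2r were Ankib1 (0.0296), Tor1b (0.0481), Wasf2 (0.0554), Chd3 (0.0554) and Rnf169 (0.0559), of which Ankib1, Wasf2 and Rnf169 were called. Tor1b and Chd3, with log2 fold changes of 0.38 and 0.39 like that of Igf2r (0.39), were not called (DESeq2 adjusted p = 0.0822 and 0.0785), so that Igf2r and its neighbours in pattern lay on both sides of the threshold.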

How the data were processed

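Raw read counts per gene were deposited by the authors, 2 files for each of 6 samples. Per the labels and the study's methods, reads were trimmed (Trim Galore 0.6.5), aligned to GRCm38.p6 with HISAT2 and counted with HTSeq 0.12.4 (union mode, reverse strand, Ensembl genes). Reads on several genes or places were not counted for any gene. Rows that name no gene (24.9 to 31.0% of all tallies) were left out. Runs of a sample differed far less than samples (chi-square per degree of freedom 1.13 to 1.52, against 22.5 to 32.6 between samples of a group), so they were summed, with n = 3 per genotype.

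Genotypes were compared with DESeq2 1.42.0 (R 4.3.3), the study's tool, with median-of-ratios size factors, genotype as the only term and Benjamini-Hochberg adjustment over all tested genes. Genes were called at adjusted p under 0.05 and a log2 change of over 0.322 in size. edgeR 4.0.16 (quasi-likelihood, TMM, genes reaching 10 counts in 3 or more samples) was the first alternative. On simulated counts both tools recovered most planted changes, and in both the share of calls that were unchanged genes exceeded the adjusted p threshold, more so in DESeq2. Normalised counts are counts over size factors. GENCODE M21 (GRCm38) gave positions, exon lengths and 3′ UTRs, and 55230 of 55471 identifiers matched. Shares were compared by exact permutation tests. Floors (3 counts) cover counting error only.

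All 10 members, Dicer1, called genes of the pathway lists with the most abundant others as examples, and the 5 genes most like each called member (mean of at least 100 normalised counts, pseudocount 1, Gm and Rik names left out) are named. Members and lists were chosen with earlier results of these data known. The lists of 6 imprinted and antisense neighbours and of the other cell types are summarised in the text, and not all of their genes are named. Some genes and sequences are not reported here.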

Additional observations from a re-analysis of the deposited data

How the results depend on the processing

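Alternatives were other size factors (TMM, total counts), edgeR, a low-count filter, no independent filtering, other thresholds, each run alone, the replicate number as a block, and leaving out each sample. The 2 members called higher became 0 with edgeR's quasi-likelihood test or a 2-fold minimum and 1 without independent filtering, and 1 to 3 when a sample was left out. No alternative called a member lower. The 4 pathway calls became 0 with edgeR and 1 with a 2-fold minimum, and 1 to 5 when a sample was left out. Irs2 kept its direction in all 17 alternatives (0.74 to 0.86), with its highest adjusted p, 0.0520, from edgeR. Igf2r kept its direction (0.32 to 0.42) and was not called in 8 of 17 (adjusted p 0.00502 to 0.149). Irs4 was called in 6 of 17, among them the low-count filter (DESeq2 adjusted p = 0.00411) and each run alone (5.78e-04 and 0.00689), over a range of 1.86e-13 to 0.496. Here the handling of its spread differed: the main fit used the gene's own dispersion, 0.224, and the filter and the first run a value drawn towards other genes, 0.104 and 0.0850. Reversals were limited to genes not called: Igf1 (0.39, over a range from -0.59) and Igf2 (0.19, from -0.45) without control 3, Igfbp5 (range up to 0.38) without control 2 (-0.11), control 3 (-0.20), Rx-Dicer 1 (-0.13) or Rx-Dicer 3 (-0.013), and the difference in the Igf2 share (-0.34 percentage points), which was 0.24 in the second run and -3.49 to 2.80 when a sample was left out. Leaving out a sample gave 5.93 to 9.20 percentage points for the Irs2 share and -3.87 to -1.20 for the Insr share.

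Same-numbered samples were not alike throughout: deviations from the group means had correlations of 0.27, -0.06 and -0.29 for same-numbered pairs. With 3 samples per genotype these correlations depend on each other, so they cannot show whether litters or batches were shared. Control 1 correlated best with Rx-Dicer 1, but control 2 did so with Rx-Dicer 3 (0.27) and control 3 with Rx-Dicer 2 (0.35). With the replicate block the pathway calls numbered 1 (Htra1), and the members called were Irs2 and Irs4 (DESeq2 adjusted p = 7.09e-06 for Irs4, 0.128 for Igf2r). Differences in share under the block were the same, 7.73, -0.34 and -2.50 percentage points for Irs2, Igf2 and Insr.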

Other observations

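Imprinted and antisense neighbours were read beside the imprinted members. H19, the noncoding RNA expressed from the other parental copy of the Igf2 domain, had 35324, 37069 and 51166 normalised counts in controls against 38541, 37830 and 44132 in Rx-Dicer samples, with control 3 the highest as for Igf2 (log2 -0.04 ± 0.16 SE, DESeq2 adjusted p = 0.977). Igf2os, antisense to Igf2, had 162, 126 and 300 in controls against 222, 176 and 188 in Rx-Dicer samples, so that control 3 was again the highest and Rx-Dicer 1 the second highest. Airn, antisense to Igf2r, had 61.1, 61.1 and 97.7 in controls against 96.1, 127 and 83.7 in Rx-Dicer samples, and the groups overlapped while those of Igf2r did not. Counting used strand, so antisense pairs do not share reads. Of the 6 genes of this list, 4 were tested and 0 were called by DESeq2 (edgeR called 0 as well, and neither tool gave any an unadjusted p under 0.05), with a median of -0.01. Cdkn1c had a log2 fold change of -0.02, and Slc22a2 had no count.

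The 8-base let-7 word was also found in coding sequence, a reading chosen after the values had been seen. It was present in 3 members, Irs2 (chr8:11006153-11006160), Igf1r (chr7:68212071-68212078) and Igf2r (chr17:12714953-12714960). The coding matches are shown with the word in capitals, on the transcript strand.
Irs2: ctccccaacggggaCTACCTCAacatgt
Igf1r: gcagatggcatggcCTACCTCAatgcca
Igf2r: acacggaggaaataCTACCTCAatgtgt
These 3 are the members with the word in both coding sequence and 3′ UTR, and in each of them all Rx-Dicer values lay above all controls. Insr and Igf1, with the word in the 3′ UTR alone, overlapped between genotypes. Among all tested protein-coding genes 5.79% had the word in coding sequence and 0.349% (49 genes) in both places. Those 49 genes had a median log2 fold change of 0.04, 3 of them were called higher (6.12%), and in 9 all Rx-Dicer values lay above the controls. The 3 members are themselves among the 49, and made up 2 of these 3 calls (Irs2 and Igf2r) and 3 of these 9 genes. The 49 are therefore no separate background for the members. Irs2 had the highest log2 fold change of the 49, at 0.81. Over all 532 tested genes with the word in the 3′ UTR, the median was 0.07 and 23 (4.32%) were called higher, against a median of -0.0037 and 1.79% among 11615 genes with no let-7 word there. The members themselves had medians of 0.27 with the 3′ UTR word and 0.16 without it, 5 genes each, and the member with the largest change, Irs4, had none.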
